A study of Arabidopsis thaliana with 6 samples.

Results

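TBL34, TBL36, TBL39 and TBL45 are members of the TRICHOME BIREFRINGENCE-LIKE (TBL) gene family of Arabidopsis thaliana. They were chosen because their values were higher in stems treated with N-1-naphthylphthalamic acid (NPA) than in mock-treated stems, so their differences below are a description and carry no test. They are 4 of 22 TBL genes, and of 13350 genes in all, that the platform's gene table paired with a probe set of their own. A probe set is a short group of array probes that reads one transcript, and where a gene had several the one with the highest mean was used.

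The study measured RNA from pieces of inflorescence stem of wild-type plants of the Columbia (Col) strain, 3 mm long and taken 2.5 cm above the base. Plants of both groups had 8 h of light and 16 h of dark a day for 3 weeks, and after that 16 h of light and 8 h of dark. The NPA group of 3 samples received 10 mg/g NPA for 7 days, and the reference was a mock-treated group of 3 samples. NPA blocks the polar transport of auxin, and the study used it to induce secondary growth, the widening of the stem by a ring of dividing cells called the cambium. The treatment text attached to every sample, mock included, speaks of NPA, while titles, descriptions and the treatment label all separate the groups, and these were followed. The labels give 1 treatment time and do not say how many plants a sample held.

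TBL proteins are found in the Golgi apparatus, where the polymers of the plant cell wall other than cellulose are made, and most members studied so far attach acetyl groups to these polymers. Acetyl groups on xylan, the main non-cellulosic polymer of the wood wall, affect how it lies against cellulose. Arabidopsis stems with reduced xylan acetylation can have collapsed vessels. TBL34 acts, together with TBL35, in the acetylation of xylan. No polymer is named here for TBL36, TBL39 or TBL45, so that a role in acetylation rests for these 3 genes on their family and not on these arrays.

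The values are log2 expression values, on which a difference of 1 is a doubling, and each array had a median between 6.18 and 6.39. Correlations of whole arrays (Pearson's r) were 0.990 to 0.993 within NPA, 0.989 to 0.993 within mock and 0.982 to 0.991 between the groups. A second principal component, with 21.9% of the variance, set NPA 3 and mock 1 apart from the other 4 arrays, so the results below are also given without these arrays together. Limma called 683 of 22746 probe sets at an adjusted p under 0.05, or 3.00%, and 2.76% were called higher in NPA. Of the calls 628 were higher and 55 lower in NPA, or 91.9% higher. Median centring of the arrays moved all differences down by 0.11, which took their median over all probe sets from 0.02 to -0.09. Then 391 calls were higher and 97 lower, or 80.1% higher.

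All 4 genes were higher in each NPA array than in any mock array. TBL36 had the largest difference, at 3.59-fold, and was already bright in mock stems. TBL39 was 3.27-fold, TBL45 1.93-fold and TBL34 1.57-fold higher in NPA. Limma called all 4 of them, against 2.76% of all probe sets, and all 4 were free of overlap, against 14.8% of probe sets with every NPA value above every mock value. Both counts follow from the choice of the genes. In pieces of whole stem, more cells of a type that uses these genes cannot be told apart from more RNA per cell.

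TBL34 (locus AT2G38320), the gene with a known part in xylan acetylation, had values of 6.05, 6.01 and 6.05 in the NPA arrays, against 5.22, 5.53 and 5.40 in the mock arrays. The NPA arrays lay within 0.04 of one another and the mock arrays within 0.31. The lowest NPA value lay 0.48 above the highest mock value. The means were 6.03 ± 0.02 in NPA and 5.39 ± 0.16 in mock (SD, n = 3 each), a difference of 0.65 with a standard error of 0.11. Its values lay between the lower quartile and the median of the array on all 6 arrays, at the 46.4th to 46.7th percentile of probe sets in NPA and the 39.6th to 42.4th in mock. The difference was 0.56 without NPA 3 and mock 1. The call of TBL34 ended when any single array but mock 2 was left out, when NPA 3 and mock 1 were left out together, and when a block for the replicate number was added, while the difference was 0.56 to 0.66 in these fits.

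TBL36 (locus AT3G54260) had values of 12.001, 11.954 and 12.183 in the NPA arrays, against 10.300, 10.232 and 10.074 in the mock arrays. The groups were separated by 1.65, many times the range of 0.23 within each group. The means were 12.05 ± 0.12 in NPA and 10.20 ± 0.12 in mock (SD, n = 3 each), a difference of 1.84 with a standard error of 0.11. The probe set was above the upper quartile on all 6 arrays, at the 98.9th to 99.2nd percentile of probe sets in NPA and the 93.7th to 94.7th in mock. Without NPA 3 and mock 1 the difference was 1.82. Its difference was larger than that of 99.9% of all probe sets.

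TBL39 (locus AT2G42570) had values of 7.85, 7.93 and 8.63 in the NPA arrays, against 6.30, 6.45 and 6.53 in the mock arrays. NPA 3 stood 0.70 above the next NPA array, and even so the lowest NPA value was 1.32 above the highest mock value. The means were 8.14 ± 0.43 in NPA and 6.43 ± 0.12 in mock (SD, n = 3 each), a difference of 1.71 with a standard error of 0.20. Without NPA 3 the difference was 1.46, and without NPA 3 and mock 1 together it was 1.40, the lowest of all settings tried. In mock the probe set was close to the middle of the array, at the 51.5th to 52.5th percentile, and in NPA it was at the 70.8th to 81.1st.

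TBL45 (locus AT2G30010) had values of 6.96, 7.11 and 7.43 in the NPA arrays, against 6.22, 6.18 and 6.25 in the mock arrays. The mock arrays lay within 0.07 of one another while the NPA arrays spanned 0.48. The means were 7.17 ± 0.24 in NPA and 6.22 ± 0.03 in mock (SD, n = 3 each), a difference of 0.95 with a standard error of 0.13. The groups were separated by 0.71. Without NPA 3 the difference was 0.82, and without NPA 3 and mock 1 together it was also 0.82. Leaving out NPA 2 or mock 2 ended the call while the difference was 0.98 or 0.93.

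**Figure D1:**
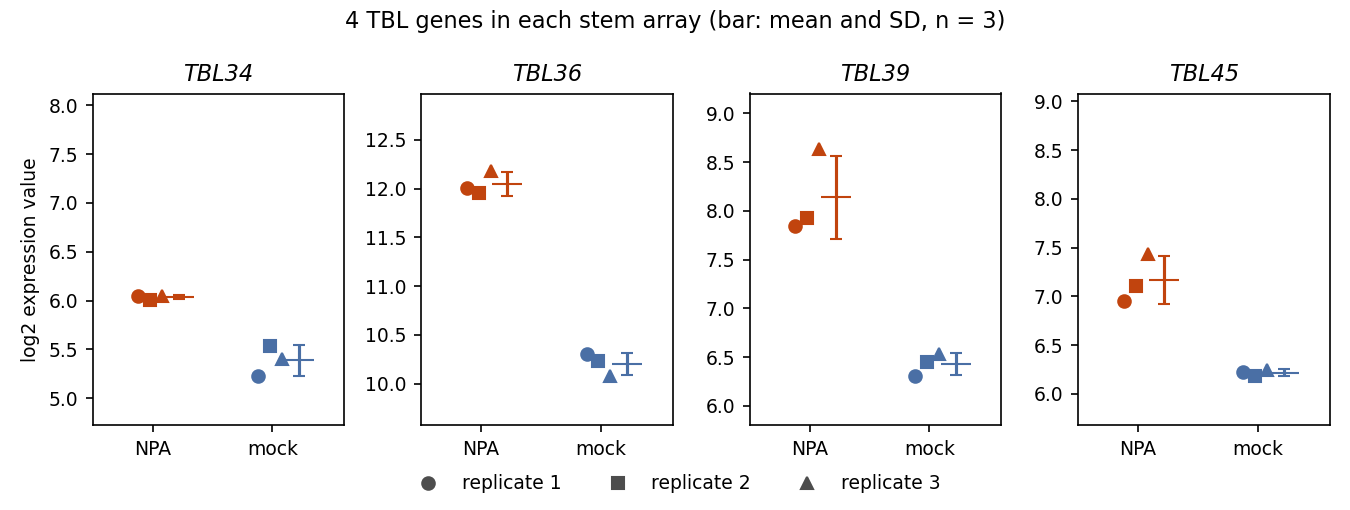
Log2 expression value (vertical axis, each panel spanning the same number of log2 units) of the 4 TBL genes in each array, with NPA on the left and mock on the right; points are arrays, and bars are the mean and SD of 3 arrays. In every panel the 3 NPA arrays lie above the 3 mock arrays, with the widest NPA spread in TBL39, where NPA 3 is at 8.63.

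The 4 genes did not share one pattern within the groups. NPA 3 was the highest NPA array for TBL36, TBL39 and TBL45, by 0.14, 0.49 and 0.27 above the group mean. For TBL34 NPA 3 was only 0.01 above its group mean. In the mock arrays mock 3 was the highest for TBL39 and TBL45 and the lowest for TBL36, while TBL34 was highest in mock 2, at 0.15 above its mean. TBL39 and TBL45 ranked the NPA arrays alike, with NPA 3 highest and NPA 1 lowest. Both loci lie on chromosome 2, as does TBL34, and none of the 4 genes is a near neighbour of another.

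**Figure D2:**
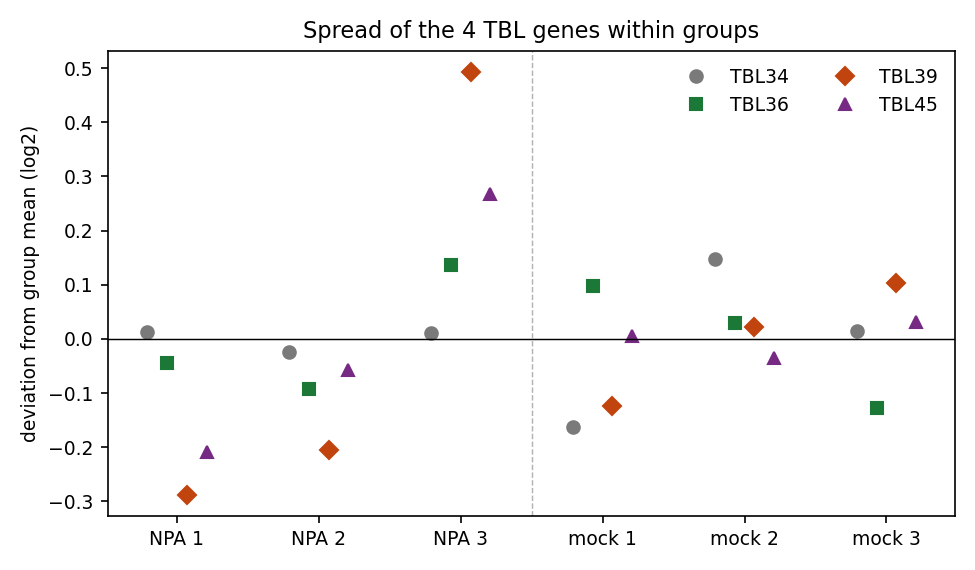
Deviation of each TBL gene from the mean of its own group (vertical axis, log2) in the 3 NPA arrays, left of the dashed line, and the 3 mock arrays, right of it. TBL39, TBL45 and TBL36 are above their mean in NPA 3, by 0.49, 0.27 and 0.14, whereas TBL34 is within 0.03 of its mean in all NPA arrays.

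The other 18 measured TBL genes had smaller differences, between -0.20 and 0.45 with a median of 0.16, against a median of 0.02 over all probe sets and 1.33 over the 4 chosen genes. None of the 18 was called by limma, against 3.00% of all probe sets. This count is tied to the choice of the 4 genes, which have the largest differences of the measured TBL genes, and carries no test. Limma's p before adjustment was under 0.05 for 4 of 18, against 16.3% of all probe sets. The NPA arrays lay above all mock arrays in 5 of the 18 and below all of them in 0, against 14.8% and 7.45% of all probe sets. Higher means in NPA were seen in 15 of the 18, against 53.9% of all probe sets. After median centring it was 10 of 18, with a median of 0.05, against a median of -0.09 over all probe sets in that fit. After a further quantile normalization it was 15 of 18, with a median of 0.08, against a median of -0.01 over all probe sets in that fit. Without NPA 3 and mock 1 it was 12 of 18, with a median of 0.10, against -0.0004 over all probe sets. The nearest gene outside the chosen set was TBL38 at 0.45, next to TBL34 at 0.65 inside it.

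TBL38, a family member reported to remove acetyl groups from pectin in the seed coat rather than add them, had values of 9.06, 8.99 and 8.96 in the NPA arrays, against 8.73, 8.55 and 8.40 in the mock arrays. Its groups did not overlap, with a gap of 0.23, and its adjusted p was 0.0867. TBL35, the partner of TBL34 in xylan acetylation, had 6.08, 6.15 and 6.39 in the NPA arrays, against 6.02, 5.91 and 6.12 in the mock arrays. Here mock 3 exceeded NPA 1, and the difference of 0.19 did not pass (SE 0.12, adjusted p = 0.472). Without NPA 3 it was 0.10.

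Among the other genes with a part in xylan acetylation, TBL32 differed by 0.36 (adjusted p = 0.487), with mock 1 at 5.22 far below the other mock arrays at 6.04 and 6.07. Without mock 1 the difference was 0.08, and without NPA 3 and mock 1 it was 0.03. Its probe set may also read other transcripts, as its name ends in _s_at. TBL28 and TBL30, which are neighbours on the chromosome, were at 0.30 (adjusted p = 0.164) and -0.05 (adjusted p = 0.846). Both were below the lower quartile on all 6 arrays, where a distance from background is not known.

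The measured TBL genes of mannan, which acetylate glucomannan, were TBL23, TBL25 and TBL26. Limma called 0 of these 3, against 3.00% of all probe sets. TBL26 differed by 0.36 (adjusted p = 0.209), with its NPA arrays all above its mock arrays, and it was the only one of the 3 with an unadjusted p under 0.05. TBL25 and TBL23 differed by 0.12 and 0.11, less than their replicate ranges, and TBL23 and TBL25 had overlapping groups. After median centring TBL25 was at 0.01 and TBL23 at -0.002, against a median of -0.09 over all probe sets in that fit.

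For the remaining genes no polymer is named here. TBL19 differed by 0.34 (adjusted p = 0.239), and by 0.22 without NPA 2. TBL37 differed by 0.32 (adjusted p = 0.516), with 0.58 without mock 2 (adjusted p = 0.0887) and 0.17 without mock 1. TBL18 and TBL16 both differed by 0.20 (adjusted p = 0.477 and 0.793), and TBL18 by 0.10 without NPA 2. TBL16 was at 5.39 in NPA 3, far below 6.54 and 6.39 in the other NPA arrays, so that NPA 3 was low for TBL16 and high for TBL39. Without NPA 3 the TBL16 difference was 0.56 (adjusted p = 0.0547), and without NPA 1 it was -0.02. TBL15, TBL43, TBL20 and TBL42 lay between 0.03 and 0.09, against a median of 0.02 over all probe sets. Each was smaller than the 0.11 by which median centring lowered all differences. TBL15 and TBL20 changed sign without NPA 3 and mock 1. TBL41 was at -0.15 and TBL21 at -0.20. Of these 6 genes only TBL43 had groups that did not overlap, with a gap of 0.01. TBL15, TBL21 and TBL42 were below the lower quartile on all 6 arrays.

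Under names that do not start with TBL, the table also held TRICHOME BIREFRINGENCE (TBR), the founding gene of the family, which is needed for crystalline cellulose in trichomes. TBR (locus AT5G06700) differed by 0.38 (SE 0.14, adjusted p = 0.229), with 8.63 ± 0.22 in NPA and 8.25 ± 0.14 in mock (SD, n = 3 each). The locus AT2G31110, a TBL40 synonym, had a pair of probe sets, at 0.36 (adjusted p = 0.292) and 0.28 (adjusted p = 0.475). Limma's p before adjustment was 0.0261 for TBR, and 0.0452 and 0.138 for this pair, against 16.3% of all probe sets under 0.05. No measured TBL gene outside the 4 chosen ones was therefore called by limma. The table of current gene symbols held 41 TBL names, and 22 were measured, so the rest of the family is not covered. The xylan acetyltransferase gene ESK1 and the xyloglucan acetyltransferase gene AXY4 were not analysed here.

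**Figure D3:**
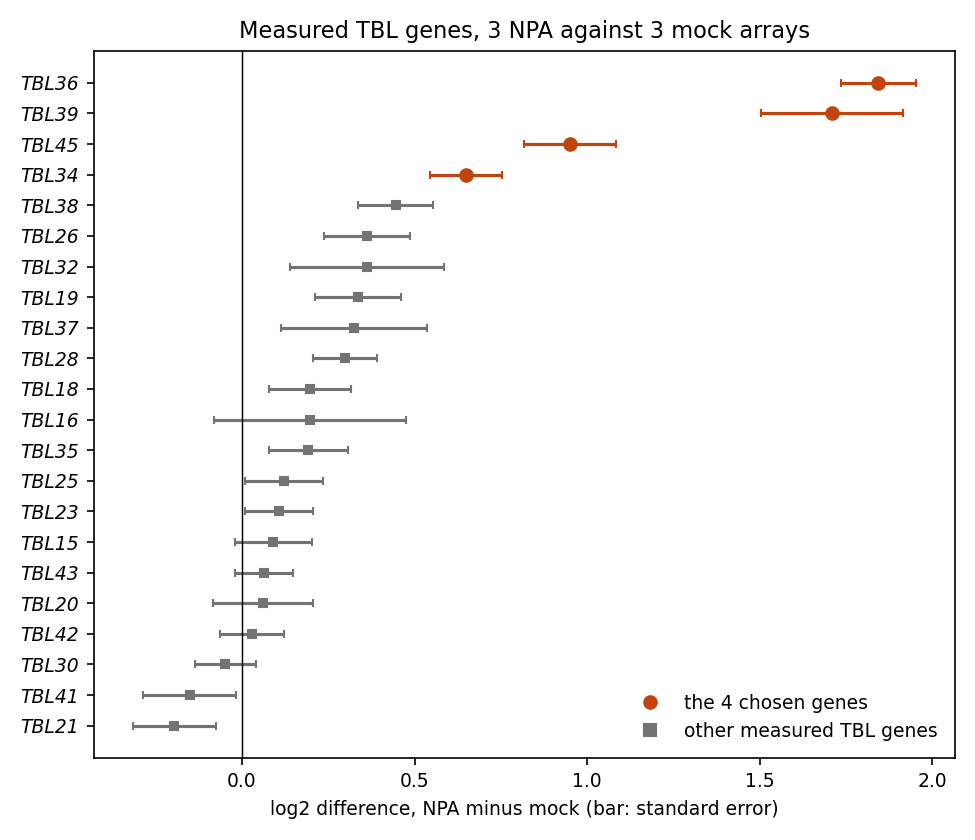
Log2 difference of NPA minus mock (horizontal axis, bars are standard errors) of the 22 measured TBL genes, in order of size, with the 4 chosen genes as circles and the others as squares. The chosen genes lie between 0.65 and 1.84 by choice, and the other 18 lie between -0.20 and 0.45.

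Acetylation of wall polymers draws on acetyl-CoA, which ATP-citrate lyase makes in the cytosol from citrate and which also feeds the synthesis of waxes and other compounds. Of 4 measured genes of this enzyme's subunits, 2 rose in NPA and 0 fell, against 2.76% of all probe sets higher and 0.242% lower. After median centring or a further quantile normalization 1 of 4 was called higher, against 391 and 473 of 22746 probe sets. ACLA-2, a gene of the small A subunit, had 9.62, 9.83 and 9.52 in the NPA arrays, against 8.58, 8.78 and 8.50 in the mock arrays. Its groups were 0.74 apart, and it rose 2.05-fold, by 1.04 (SE 0.12, adjusted p = 0.00678), and stayed called under every alternative that was run. ACLA-1 rose by 0.49 (SE 0.09, adjusted p = 0.0387), but lost its call with any single array but NPA 3 left out, with adjusted p up to 0.149. It also lost its call after median centring (adjusted p = 0.145) or a further quantile normalization (adjusted p = 0.0504). The same held with a replicate block (adjusted p = 0.113) and without NPA 3 and mock 1 together (adjusted p = 0.0763). ACLB-1, of the B subunit, differed by 0.32 (adjusted p = 0.190) and ACLA-3 by 0.04 (adjusted p = 0.894). The RWA genes and AXY9, which also act in wall acetylation, and the pectin acetylesterase genes were not analysed here.

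Of the genes that make the polymers themselves, all 3 measured genes of xylan synthesis rose, against 2.76% of all probe sets. The xylan list had 30 entries, and only these 3 genes could be matched to a probe set of their own. It was drawn up with earlier results of these data known. IRX10, which extends the xylan backbone, had 9.50, 9.98 and 9.35 in the NPA arrays, against 8.27, 8.25 and 8.10 in the mock arrays (adjusted p = 0.00705). IRX15-L and IRX15 act on the same polymer and had means of 9.41 ± 0.13 and 9.20 ± 0.24 in NPA, and 8.08 ± 0.26 and 8.22 ± 0.12 in mock (SD, n = 3 each, adjusted p = 0.00532 and 0.0138). All 3 xylan genes were highest in NPA 2 and lowest in NPA 3, which is not the order seen in TBL36, TBL39 and TBL45, where NPA 3 was highest. Without mock 2 or without mock 3 IRX15 was no longer called (adjusted p = 0.0568 and 0.0576).

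Among 4 measured CSLC genes, which are of the family that makes the xyloglucan backbone, CSLC5 rose and 0 fell, against 2.76% of all probe sets higher and 0.242% lower. CSLC5 had 6.21, 6.25 and 6.60 in the NPA arrays, against 5.80, 5.58 and 5.51 in the mock arrays, a rise of 0.73 (SE 0.14, adjusted p = 0.0366). Its order over the NPA arrays, with NPA 3 highest, was that of TBL39 and TBL45. Each fit with a single array left out ended this call (adjusted p of 0.0547 to 0.125), while the difference stayed at 0.60 to 0.81. Median centring, a further quantile normalization, trended eBayes (adjusted p = 0.0536) and a replicate block (adjusted p = 0.0948) also ended it. Without NPA 3 and mock 1 together CSLC5 stayed called, at 0.68 (adjusted p = 0.0487). CSLC4 had 9.06 in NPA 3, against 7.64 and 7.94 in the other NPA arrays, and differed by 0.25 (adjusted p = 0.785). Without NPA 3 this turned to -0.17, and without NPA 3 and mock 1 to -0.28. CSLC6 differed by 0.30 (adjusted p = 0.357) and CSLC12 by 0.07 (adjusted p = 0.802).

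The measured mannan backbone genes CSLA01 and CSLA3 were at -0.02 and 0.01 in this difference. Limma called 0 of 2, and before adjustment 0 of 2 had a p under 0.05. Among 4 measured genes of lignin synthesis, HCT rose by 0.75 (SE 0.09, adjusted p = 0.00749), and of the fits run only that without NPA 3 and mock 1 together ended its call (adjusted p = 0.0528). The difference was -0.24 for the peroxidase gene PRX52 (adjusted p = 0.901), -0.03 for PRX72, another one (adjusted p = 0.900), and -0.03 for CCR2, of the lignin pathway (adjusted p = 0.986). With single arrays left out PRX52 ran from -0.84 without mock 1 to 0.40 without mock 3, and CCR2 from -0.50 to 0.55 without the same arrays, so neither has a stable sign. Over these lists together 7 of 17 measured genes rose and 0 fell, with a median of 0.30, against 2.76% of probe sets called higher and a median of 0.02. After median centring 5 of 17 were called higher and the median was 0.19, against 391 of 22746 probe sets and a median of -0.09. The lists were drawn up with earlier results of these data known, and some of their genes were already known to rise. These counts, and those of the single lists above, are therefore a description and carry no test. The 9 wall lists held 162 entries in all. Those of pectin synthesis, secondary wall cellulose, pectin deacetylation and secondary wall regulators had 0 genes matched to a probe set of their own. Whether their genes are among the probe sets without a gene name is not known.

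**Figure D4:**
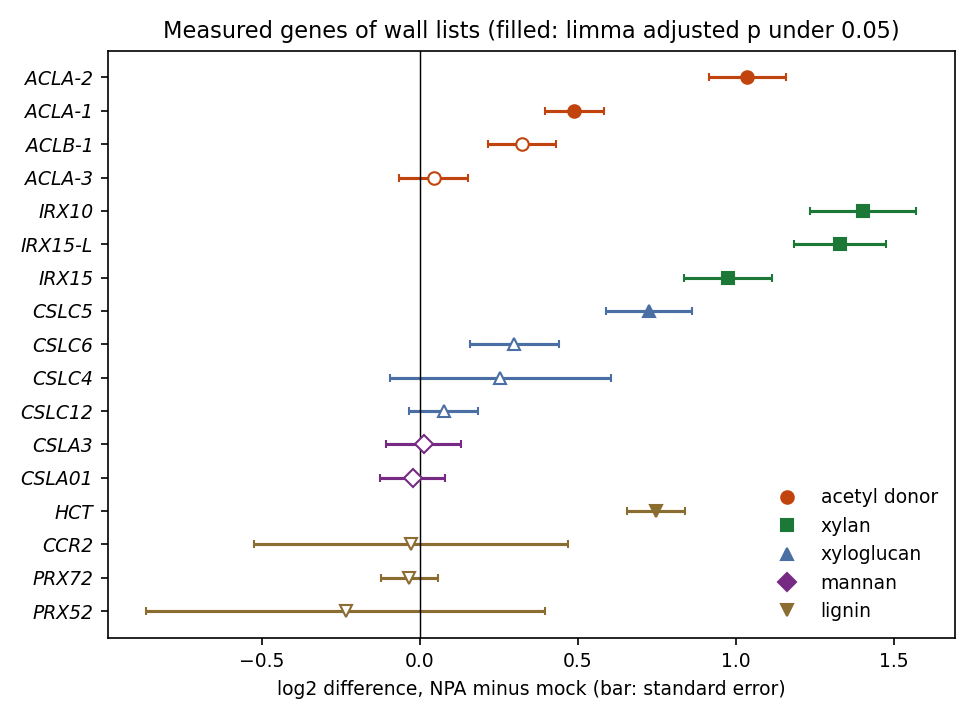
Log2 difference of NPA minus mock (horizontal axis, bars are standard errors) of 17 measured genes of wall lists, grouped by marker shape and colour, with filled markers for limma's adjusted p under 0.05. The 3 xylan genes and ACLA-2 lie furthest to the right, at 0.97 to 1.40, and the mannan genes lie at -0.02 and 0.01.

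Markers of tissues in the stem moved less uniformly. Of the phloem genes, OPS rose by 1.15 (SE 0.18, adjusted p = 0.0191), with 6.64 ± 0.32 in NPA and 5.49 ± 0.19 in mock (SD, n = 3 each). Without NPA 1, mock 1 or mock 2 its difference was 1.12, 1.11 and 1.07, but its adjusted p was 0.0632 to 0.0765, and without NPA 3 and mock 1 together the difference was 0.97 (adjusted p = 0.0871). SWEET11, a sucrose carrier gene of the phloem, was at 6.43 ± 0.52 in NPA and 7.38 ± 0.11 in mock (SD, n = 3 each), a difference of -0.95 (adjusted p = 0.0909). Without NPA 3 this was -0.65 and was called (adjusted p = 0.0460). Of the 3 photosynthesis genes of the green cortex 0 were called, against 3.00% of all probe sets. Their mean level was 10.62 to 11.03 in NPA and 10.48 to 10.72 in mock. PSAN, PSAE-1 and PRK were each above the upper quartile on all arrays. PRK differed by 0.41 (adjusted p = 0.347), and by 0.18 without NPA 2. The starch sheath gene SCL23 had a difference of -0.51 (adjusted p = 0.0594). It was called after a further quantile normalization, at -0.62 (adjusted p = 0.0490), and among the brighter probe sets only (adjusted p = 0.0480). Of the 5 genes measured for stomata, epidermis and flower 0 were called by limma, against the same 3.00%. With so few genes these counts do not show that the tissues were unchanged. FAMA, of stomata, alone had a p under 0.05 before adjustment, at a difference of -0.23, against 16.3% of all probe sets. ACR4 of the epidermis was at -0.02 and SPL of the flower at 0.03. All of these 5 genes but FAMA and ACR4 were below the lower quartile on all 6 arrays. The xylem vessel list had 0 genes matched to a probe set of their own. What part a changed make-up of the tissue has in the higher TBL values was not tested.

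By a fixed rule the 3 genes with the most similar pattern over the 6 arrays were taken for each TBL gene, out of 13349 others. Pearson's r was 0.995 to 0.999, and since it spans both groups it is set largely by the group difference. It is given as a description of 6 arrays that share their normalization. AT5G64030, AT1G69080 and AT5G20580 were closest to TBL34 (r = 0.999, 0.998 and 0.995). AT2G31930, AT1G56670 and AT1G09440 were closest to TBL36 (r = 0.997, 0.997 and 0.996). AT1G56670 was below the lower quartile on all 6 arrays and differed by only 0.19, so a high r need not go with a large difference. TBL39 was closest to AT4G29100 and AT1G27120 (r = 0.997 and 0.996), with TBL45 in the third place (r = 0.995). TBL45 was closest to AT2G23300 and AT3G59950 (r = 0.998 and 0.997), again with TBL39 in the third place. TBL39 and TBL45 were thus the only pair of the 4 that named each other. Limma did not call AT5G20580, AT1G56670, AT1G27120 and AT3G59950 (adjusted p = 0.0501, 0.319, 0.0501 and 0.113), and it called the other genes named here.

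Genes next to the TBL genes on the chromosome, up to 2 on each side, were looked at after the values were seen. Of 16 such neighbours 7 were measured, of which 1 rose, 1 fell and 5 were not called, against 3.00% of all probe sets called. AT3G54250, beside TBL36, had 5.41, 5.54 and 5.35 in the NPA arrays, against 4.95, 4.79 and 5.01 in the mock arrays, a rise of 0.52 (SE 0.10, adjusted p = 0.0458). This call ended in every fit with a single array left out (adjusted p of 0.0734 to 0.165) and after median centring (adjusted p = 0.136). It also ended without NPA 3 and mock 1 together (adjusted p = 0.119). AT3G54270 on its other side differed by 0.11 (adjusted p = 0.780). AT2G29995, near TBL45, fell by 0.94 (SE 0.13, adjusted p = 0.0120), with 7.94, 7.61 and 7.54 in the NPA arrays, against 8.77, 8.56 and 8.58 in the mock arrays. Its groups did not overlap, though the call ended without NPA 2 (adjusted p = 0.0614) and without NPA 3 and mock 1 together (adjusted p = 0.0681), and its difference ran opposite to that of TBL45. The measured neighbours of TBL34 and TBL39 differed by -0.16 to 0.22, with overlapping groups.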

How the data were processed

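The deposited values are log2 expression values of 6 arrays, made by the authors with RMA, per the submitters' processing notes. These also name limma, and no version of either tool. RMA quantile-normalizes arrays and gives no detection call. For the probe set definitions, any filter and the genome build, a statement was not given in the sources used here. The values were used as deposited, without 64 control probe sets, which left 22746. Of these 13513 had exactly 1 gene in the platform table, 503 several and 8730 none; RefSeq's TAIR10.1 gene table gave the current symbols. Limma 3.58.1 (R 4.3.3; lmFit, then eBayes) gave NPA minus mock. Its p-values were adjusted by Benjamini-Hochberg over all 22746, and a call is an adjusted p under 0.05. Standard errors are limma's moderated ones. Python 3.11.15, pandas 2.3.3 and matplotlib 3.10.9 were used for the rest, and the fit was tested on simulated data.

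The titles gave the groups. Whether a group's samples were separate plants is not stated in the labels, so a p-value here covers the spread between samples only, and that spread may be technical. With 3 arrays a group, their number sets a limit to the precision. The 4 TBL genes and all gene lists were chosen with earlier results of these data known, and some wall list genes were already known to rise. The named genes were the measured TBL genes, up to 4 called members with the lowest p per wall list or 1 where none was called, up to 2 per tissue list, and the 3 most similar genes for each of the 4. Uncalled wall list genes and the chromosome neighbours were named after their values were seen. Alternatives were median centring, a further quantile normalization, trended and robust eBayes, a replicate block, each array left out, brighter probe sets, no _s_at or _x_at probe sets, gene means and other thresholds. Leaving out NPA 3 and mock 1 together was added after the data were seen.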

Additional observations from a re-analysis of the deposited data

How the results depend on the processing

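The differences of TBL34, TBL36, TBL39 and TBL45 kept their sign and moved by less than 1 SD between replicates under each alternative run for them, between 0.54 and 0.72, 1.73 and 1.89, 1.40 and 1.85, and 0.82 and 1.05. Of 683 called probe sets, 304 to 446 were called with single arrays left out, 397 without NPA 3 and mock 1 together, 255 with a log2 difference of at least 1 as well, and 1208 at an adjusted p under 0.1. Called TBL genes numbered 2 to 3 with single arrays left out and 2 with a log2 difference of at least 1. Called wall list genes numbered 4 to 6 with single arrays left out and 3 with a log2 difference of at least 1. Fits with fewer arrays lose calls through that alone. The deviations of same-numbered arrays from their group means correlated at -0.26, 0.05 and 0.04. NPA 1 correlated best with mock 2 and NPA 3 with mock 1. Deviations within a group cancel out, so these values cannot decide whether same-numbered samples were handled as pairs. With the replicate block 449 probe sets, 3 TBL genes and 5 wall list genes were called. RMA gives no detection call, so the distance from background is unknown for the probe sets below the lower quartile.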
